A study of Mus musculus with 2 samples.

Results

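Cullin-RING ligases and the anaphase-promoting complex (APC) are modular ubiquitin ligases, which attach ubiquitin to chosen proteins. Their subunits on this array were taken by gene name: every probe, controls aside, whose name in the files begins with Cul, Fbxl, Fbxo, Fbxw, Anapc, Klhl or Kctd followed by a digit. The rule gave 209 probes for 149 of 35015 gene names, with 1 to 4 probes per gene and a single probe for 100 genes. By family they were 8 cullins, 9 Anapc genes, 18 Fbxl, 37 Fbxo, 22 Fbxw, 33 Klhl and 22 Kctd genes. Fbxo18 is named Fbh1 in current RefSeq and keeps its older name here.

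Microglia are the macrophages that reside in brain and spinal cord. They were sorted from the spinal cord of mice of an atopic diathesis model, a tendency to allergic disease, and of control mice. The atopic diathesis sample carries the title activated microglia and the control sample the title normal microglia, and each was measured on 1 array that reads fluorescence intensity in 1 colour. Strain, age, sex, the way the model was made and the number of mice per sample are not given in the sources used here. In bulk RNA, fewer cells of a type and less RNA per cell cannot be told apart. Since each group is 1 array, differences have no replicate check, no test was made, and every value describes this pair of samples. Both arrays lay on 1 slide, where position and group cannot be told apart.

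In a cullin-RING ligase the cullin is the scaffold: a RING protein that recruits the ubiquitin-conjugating enzyme binds one end, and an adaptor with a substrate receptor binds the other. Cul1 takes F-box proteins (Fbxl with leucine-rich repeats, Fbxw with WD40 repeats, Fbxo with other domains) through the adaptor Skp1, whereas Cul3 takes proteins with a BTB domain directly, among them many Klhl and some Kctd proteins. The APC is a larger assembly with a cullin-like subunit, Anapc2, and is best known for driving exit from mitosis, although non-dividing cells hold it too. In immune cells, F-box proteins of the beta-TrCP type are known for releasing NF-kappaB by marking its inhibitor for destruction.

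Measured genes are those with a probe that the scanner software marks as well above background on both arrays. A gene's value is the mean log2 processed signal over such probes. Differences are atopic diathesis minus control, relative to the median measured gene. "Higher" and "lower" mean at least 2-fold from that median, and genes above background on 1 array only are given apart. Probes printed 10 times per array allow an estimate of error: pooled over 101 of them, the scatter between spots gave a 95% interval of ±0.40 for a log2 difference, which covers spot error alone.

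On the arrays as a whole, 15385 probes (27.6%) were well above background in atopic diathesis and 13429 (24.1%) in control microglia, and no spot was saturated. All 10 microglia markers followed, among them P2ry12, Tmem119 and Cx3cr1, were measured and differed by under 2-fold, with summed signals of 73100 in atopic diathesis and 78500 in control microglia. No gene followed for T cells (3 genes), other macrophages or monocytes (5), neutrophils (3) or red cells (3) was well above background on either array, and their summed signals reached at most 33.7 in atopic diathesis and 25.0 in control microglia. Of 6 oligodendrocyte genes, Cnp was higher, at a log2 difference of 1.70. Mag was detected in atopic diathesis only, and the list summed to 1030 in atopic diathesis and 1060 in control microglia. Of 4 endothelial genes, which summed to 145 in atopic diathesis and 344 in control microglia, Pecam1 was detected in atopic diathesis only and Flt1 in control microglia only. The mast cell gene Mcpt4 read 56.5 in atopic diathesis microglia, above background there only, against 5.02 in control microglia, and that list summed to 68.0 in atopic diathesis and 13.6 in control microglia. Astrocyte genes summed to 786 in atopic diathesis and 804 in control microglia. Of 6 neuron genes only Snap25 was measured, at 84015 in atopic diathesis and 82155 in control microglia, on a probe that shares a stretch of 20 bases with probes of 21 other gene names. The part of other cell types in the results below was not tested.

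Of the 149 genes, 44 (29.5%) were measured, 20 were detected in atopic diathesis microglia alone, 7 in control microglia only, 1 (Fbxl19) on different arrays by different probes, and 77 on neither array. Over all gene names 26.3% were measured. Among the 44, 11 were higher and 8 lower in atopic diathesis microglia, where 17.3% of all 9217 measured genes were higher and 15.6% lower. In all, 43.2% of the measured members lay past 2-fold, against 32.9% of measured genes. Past 8-fold lay 6 members, or 13.6%, against 4.25% of measured genes. The members' median difference of 0.04 was close to the 0 that the median gene has by construction (-0.46 against -0.50 on the 75th percentile scale described next), and their values ran from -5.07 to 4.97. Members thus lay on both sides of the median gene, 23 above and 21 below it.

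How often genes lay past 2-fold depended on signal. From the dimmest to the brightest quintile of mean signal, the share of all measured genes past 2-fold was 20.1%, 46.1%, 46.6%, 36.5% and 15.2%. Of the members, 1 of 7, 5 of 13, 10 of 13, 3 of 7 and 0 of 4 lay past 2-fold in the same order. The members' count thus stood above the share of all genes in the middle and the next brighter quintile and below it in the other quintiles. The balance of directions also moved with the scaling: 8 members were higher and 12 lower when each array was set to its 75th percentile over all probes, which puts the median gene itself at -0.50, and 10 were higher and 11 lower after quantile normalization. Over all measured genes 989 genes were higher and 2503 lower on the 75th percentile scale, 1325 higher and 1830 lower after quantile normalization, and 1596 higher and 1436 lower on the main scale.

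**Figure D1:**
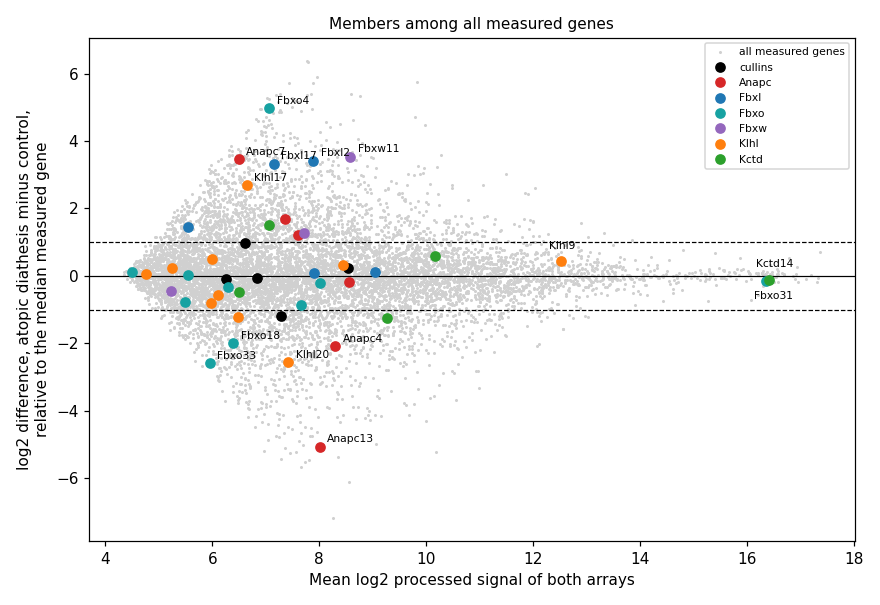
Each point is a measured gene, with the mean log2 processed signal of both arrays on the horizontal axis and the log2 difference, atopic diathesis minus control relative to the median measured gene, on the vertical axis; grey points are all 9217 measured genes, coloured points the 44 members by family, and dashed lines mark 2-fold. Members lie on both sides, from Fbxo4 at 4.97 to Anapc13 at -5.07, and the spread of all genes narrows at high signal.

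Probe sequences are shown where they bear on how a value can be read, as a stretch of 30 of the 60 probe bases, with positions on mouse build mm9. Capitals mark bases that lie in a stretch of 20 or more shared with a probe of another gene name, and a sequence without capitals shares none within the printed stretch. Such sharing was found for 7 of the 209 member probes and for 7.24% of all probes. The largest difference downward (Anapc13), the largest upward (Fbxo4), a gene with a pair of matching probes (Fbxw11), 2 genes with opposed probes (Fbxl19 and Fbxo8), and 2 genes whose bright probe is repetitive (Kctd14 and Fbxo31) are printed.
Anapc13, chr9:102536466-102536525, plus strand: CTGATGCCGGGCTCCTTCCCAcggacggag
Fbxo4, chr15:3915561-3915620, minus strand: ctttctactggacagctaccacagctgggt
Fbxw11, chr11:32646601-32646660, plus strand: tatcatgacggctttgtactgtggaatgtg
Fbxw11, chr11:32646490-32646549, plus strand: gttaaagcactggggtagtctaattctaac
Fbxl19, chr7:134912382-134912441, plus strand: gctccacccttcacttgagttggggtgggg
Fbxl19, chr7:134912920-134912979, plus strand: ggcacccagccgggctggacccctaacccc
Fbxo8, chr8:59068981-59069040, plus strand: tataaccaagttctcacataggttctgtgc
Fbxo8, chr8:59070926-59070985, plus strand: ctagaaaccaataccagcttcccatttctc
Kctd14, chr7:104606896-104606955, plus strand: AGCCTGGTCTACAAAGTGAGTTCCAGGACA
Kctd14, chr7:104603381-104603440, plus strand: tcaagatgtttaacaccagggtgttccgtc
Fbxo31, chr8:124073494-124073553, minus strand: acagacacaCACACAACACACACACACACA
Fbxo31, chr8:124075949-124076008, minus strand: tatagtgtgtaacatactcttgtacatttg

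Of 8 cullins, the scaffolds, 5 were measured, and 4 of them stayed within 2-fold, with a family median of -0.06. Past 2-fold lay 32.9% of all measured genes. With so few cullins measured, their count within 2-fold does not set them apart from other genes. Cul3, the scaffold for BTB adaptors, had signals of 101 in atopic diathesis and 238 in control microglia and was the lower one (log2 difference -1.20, 2.30-fold lower). With normexp background correction its difference was -0.75, no longer past 2-fold. Cul1, the scaffold of F-box ligases, read 135 in atopic diathesis and 70.7 in control microglia (0.96), just inside 2-fold.

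Cul4b, which binds Ddb1 and its substrate receptors, read 395 in atopic diathesis and 347 in control microglia (0.22). Cul7, known to assemble with Fbxw8, read 111 in atopic diathesis and 119 in control microglia (-0.06). Cul2, which takes the von Hippel-Lindau protein through elongins, gave -0.10 and -0.07 on its probes above background, with gene signals of 73.7 in atopic diathesis and 80.0 in control microglia. These 3 differences lie within the spot interval of ±0.40. Cul4a, Cul5, a partner of SOCS-box receptors, and Cul9 were above background on neither array.

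Of 9 Anapc genes 6 were measured, 3 higher and 2 lower, where 17.3% of all measured genes were higher and 15.6% lower. Their median of 0.51 hides a range from -5.07 to 3.45, the widest of any family. That width rests on Anapc13. Without it the Anapc values ran from -2.09 to 3.45, a narrower range than that of the Fbxo genes, -2.60 to 4.97. Anapc13, a small subunit that stabilises the arm of the complex, read 43.8 in atopic diathesis and 1509 in control microglia, 33.7-fold lower and the lowest of all members. A probe for an unnamed transcribed region of chromosome X shares the capitals printed above and read 49.1 in atopic diathesis and 1251 in control microglia. Sharing sequence, these probes are not independent readings.

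Anapc4, of the platform that joins scaffold and catalytic module, was also lower, at 151 in atopic diathesis and 655 in control microglia (-2.09, 4.25-fold lower). On the other side, Anapc7, a subunit with tetratricopeptide repeats, read 295 in atopic diathesis and 27.6 in control microglia (3.45, 10.9-fold higher). Another Anapc7 probe 35 bases away read 4.32 in atopic diathesis and 4.31 in control microglia and was above background on neither array, and a further one at 5.10 in atopic diathesis and 4.89 in control microglia was not above background either. The Anapc7 difference therefore rests on 1 of 3 probes, with its control signal close to the lowest signal that counted as well above background on that array, 19.8.

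Anapc1, the largest scaffold subunit, read 292 in atopic diathesis and 92.9 in control microglia (1.69, 3.22-fold higher), and its other 2 probes were above background on neither array. Without a background filter, where those probes enter, it read 0.63. Anapc5, another platform subunit, averaged 1.20, but its probes differed: 887 in atopic diathesis and 211 in control microglia on one (2.10) and 96.0 in atopic diathesis and 80.3 in control microglia on the next (0.29). The last read 14 in atopic diathesis and 45.0 in control microglia, above background in the control only. Once that last probe entered, Anapc5 read 0.06. Each measured Anapc5 probe shares a stretch of 20 or more bases with an unnamed probe, so these are not independent readings. The partner of the brighter probe read 258 in atopic diathesis and 44.0 in control microglia. That of the other read 146 in atopic diathesis and 147 in control microglia. Anapc2, the cullin-like catalytic subunit, read 352 in atopic diathesis and 406 in control microglia (-0.18).

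Anapc11, the RING subunit that works with Anapc2, was detected in atopic diathesis alone. Its probe was printed 10 times on each array. Spots ran from 52.3 to 79.3 (median 67.3) in atopic diathesis and from 4.05 to 5.32 (median 4.40) in control microglia. The gap between these ranges largely follows from choosing genes detected on a single array, and repeated spots cover spot error alone. The bound was at least 3.50-fold higher. Another Anapc11 probe, at 12.1 in atopic diathesis and 10.5 in control microglia, was above background on neither array. Anapc10, a substrate-binding subunit, and Anapc16 were not well above background either. Anapc15 carries an older name in the files and so falls outside the naming rule. Its 3 probes read 123, 74.3 and 169 in atopic diathesis microglia, above background there, and 4.11, 4.71 and 15.4 in control microglia, not above background.

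**Figure D2:**
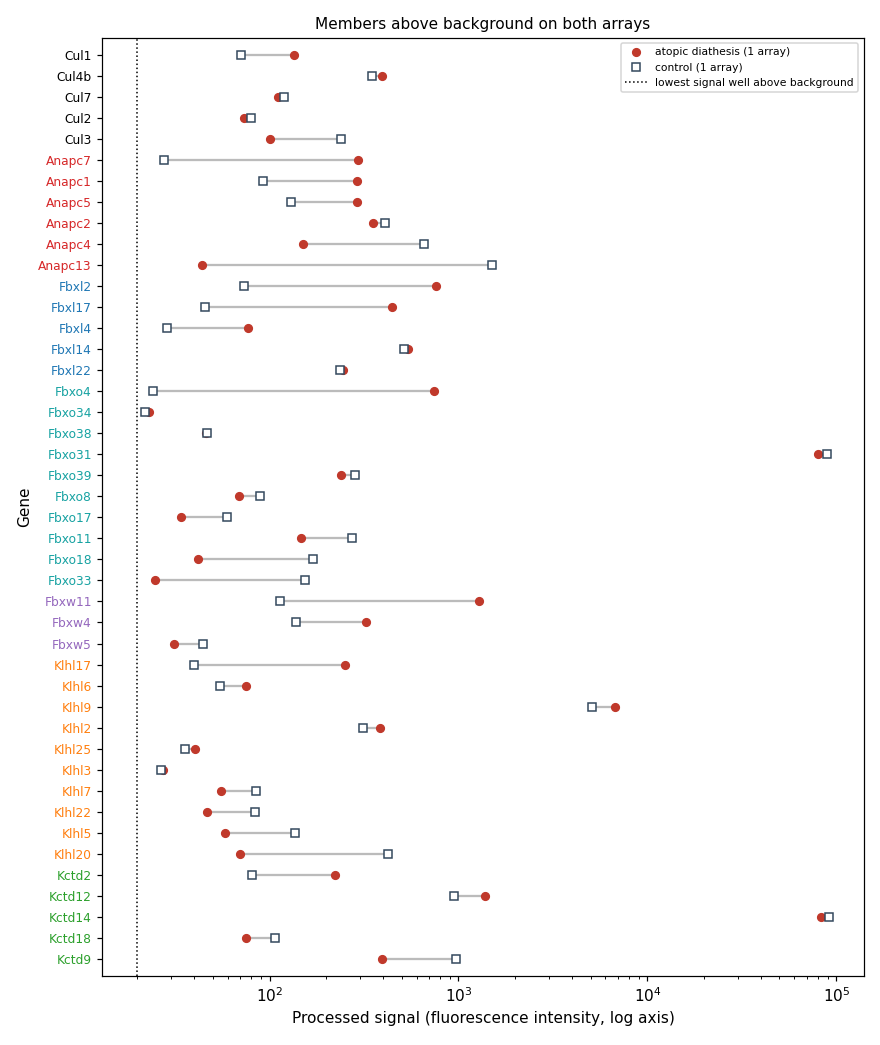
Processed signal on a log axis for each of the 44 measured members, with filled circles for the atopic diathesis array, open squares for the control array, gene names coloured by family and a dotted line at the lowest signal well above background. The long bars of Anapc13, Fbxo4, Fbxw11 and Fbxl2 contrast with the short ones of Cul2, Cul7, Fbxl14 and Klhl3, and 15 of the 44 genes have their dimmer signal under 50.

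Among the substrate receptors of Cul1, the 77 F-box genes held 18 measured ones, of which 6 were higher and 2 lower. These are 33.3% and 11.1%, against 17.3% and 15.6% of all measured genes. On the 75th percentile scale Fbxl4 (0.94) and Fbxw4 (0.76) were no longer higher, and Fbxo11 (-1.37) and Fbxo17 (-1.29) were lower. Higher F-box genes then no longer outnumbered lower ones. Over all measured genes that scale gave 989 higher and 2503 lower. Fbxo4, known for its part in cyclin D1 turnover, read 738 in atopic diathesis and 24.1 in control microglia, 31.4-fold higher and the highest of all measured members. Its control signal lay near the lowest that counted as detected, and with uncorrected signals its log2 difference was 2.92 rather than 4.97. Fbxo4 has 1 probe.

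Fbxw11 encodes the beta-TrCP paralogue that recognises phosphorylated NF-kappaB inhibitor and beta-catenin. Its brighter probe read 1700 in atopic diathesis and 145 in control microglia, and the other, 51 bases away, read 978 in atopic diathesis and 89.4 in control microglia. The log2 differences of 3.58 and 3.48 are close, and the gene was 11.6-fold higher. Btrc, the other beta-TrCP gene, is outside the naming rule and went the other way: it read 13 in atopic diathesis, not above background, and 260 in control microglia, at least 12.8-fold lower. Of their substrates, the NF-kappaB inhibitor gene Nfkbia (0.31) and the beta-catenin gene Ctnnb1 (-0.61) stayed within 2-fold. The arrays read RNA, so these and the other substrate values below do not measure the turnover of substrate proteins.

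Of 18 Fbxl genes, with leucine-rich repeats, 5 were measured. Of these 3 were higher, where 17.3% of all measured genes were, and the other 2 lay within the spot interval of the median gene. The family median was 1.44. That median was 0.51 with uncorrected signals. Fbxl2, a receptor with a lipid anchor, read 764 in atopic diathesis and 73.2 in control microglia (3.42), and another Fbxl2 probe was above background on neither array. Fbxl17, which removes wrongly paired BTB proteins, read 444 in atopic diathesis and 45.4 in control microglia (3.32).

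Fbxl4, a mitochondrial protein that restrains mitophagy, read 76.7 in atopic diathesis and 28.8 in control microglia (1.44), a difference of 0.58 with normexp. Fbxl14, a receptor for Snail, was printed 10 times on each array, with spots from 504 to 592 in atopic diathesis and from 474 to 556 in control microglia. These ranges overlap, and the difference of 0.10 is within the spot interval. Fbxl22, known from heart muscle, averaged 0.09 over probes at 0.59 and -0.40.

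The Fbxo group held 10 measured genes, 1 higher (Fbxo4) and 2 lower, with a median of -0.27. Fbxo33 read 24.8 in atopic diathesis and 154 in control microglia (-2.60, 6.06-fold lower). Its atopic diathesis signal lay near the lowest detected signal of that array, 19.9, and with uncorrected signals its log2 difference was -1.07. Fbxo18, which carries a DNA helicase domain beside its F-box, gave -2.88 and -1.12 on its probes, with gene signals of 41.6 in atopic diathesis and 170 in control microglia, and the gene read -1.01 with uncorrected signals. Fbxo11, a receptor for the repressor Bcl6, read 147 in atopic diathesis and 274 in control microglia (-0.87), within 2-fold on the main scale but at -1.37 on the 75th percentile scale and -1.06 after quantile normalization. Bcl6 itself read 362 in atopic diathesis and 27.0 in control microglia (3.78), the latter near the lowest detected signal of that array, 19.8.

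Fbxo17, of the sugar-binding F-box subgroup, read -0.79, and -1.29 and -1.25 under the same 2 scalings. Fbxo34 read 0.10, Fbxo38 0.03 and Fbxo39 -0.21. Fbxo8, which joins an F-box to a Sec7 domain, had probes in opposite directions. The probe with the lower coordinates read 65.1 in atopic diathesis and 28.7 in control microglia (1.22), and the one 1885 bases further along read 73.0 in atopic diathesis and 279 in control microglia (-1.90). Their mean of -0.34 describes neither probe. The Fbxw group held 3 measured genes: Fbxw11, Fbxw4, which was higher at 324 in atopic diathesis and 138 in control microglia (1.26, and 0.76 on the 75th percentile scale), and Fbxw5, at 31.3 in atopic diathesis and 44.2 in control microglia (-0.46).

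Fbxo31, a receptor known for cyclin D1 turnover after DNA damage, read 79553 in atopic diathesis and 89582 in control microglia (-0.14). The printed stretch of this probe is largely a CA repeat, part of which is shared with a probe that read 24270 in atopic diathesis and 33233 in control microglia. The other Fbxo31 probe read 4.58 in atopic diathesis and 4.75 in control microglia, above background on neither array. Kctd14 showed the same picture. Its bright probe read 82516 in atopic diathesis and 91337 in control microglia (-0.11) and shares sequence with probes of other genes: Elk1 (81869 in atopic diathesis, 78263 in control), Med16 (82229 in atopic diathesis, 83327 in control), Ttc38 (51040 in atopic diathesis, 51744 in control) and Glrx2 (112080 in atopic diathesis, 116592 in control). A further, unnamed probe that shares sequence read 1639 in atopic diathesis and 1588 in control microglia. The other 2 Kctd14 probes read 5.01 and 4.84 in atopic diathesis and 4.82 and 6.10 in control microglia. For these 2 genes the measured value comes from a probe that other transcripts could bind. Whether they do was not tested.

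The Klhl family, adaptors of Cul3, had a share past 2-fold near that of all measured genes. Of 33 genes 10 were measured, with 7 within 2-fold and the others past it, where 32.9% of all measured genes lay past 2-fold. The family median of 0.14 was -0.36 on the 75th percentile scale. Klhl17, also called actinfilin, an actin-binding protein of neurons, read 250 in atopic diathesis and 39.8 in control microglia (2.68, 6.42-fold higher). Klhl20, an adaptor in autophagy control and for the PML protein, read 69.6 in atopic diathesis and 422 in control microglia (-2.57, 5.93-fold lower). Klhl5 read 58.1 in atopic diathesis and 137 in control microglia (-1.21), a difference of -0.71 with normexp.

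Klhl9, a partner of Cul3 in mitotic control of Aurora B, read 6717 in atopic diathesis and 5102 in control microglia (0.43). The adaptors of WNK kinases, Klhl2 (0.33) and Klhl3 (0.06), were close to the median gene, as was their substrate gene Wnk1 (-0.24). Klhl6, known from B lymphocytes, read 0.50 and Klhl25 0.22. Klhl22 (-0.81) and Klhl7 (-0.57) lay below the median gene, and on the 75th percentile scale they read -1.31 and -1.07.

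Of 22 Kctd genes 5 were measured, 1 higher and 1 lower, with a median of -0.11. Past 2-fold thus lay 40.0% of them, against 32.9% of all measured genes. Kctd2 read 223 in atopic diathesis and 80.3 in control microglia (2.84-fold higher, with a log2 difference of 0.93 in uncorrected signals). Kctd9 read 395 in atopic diathesis and 966 in control microglia (-1.26, 2.39-fold lower). Kctd12, an auxiliary subunit of GABA-B receptors, read 1389 in atopic diathesis and 943 in control microglia (0.59), and Kctd18 read -0.48.

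Taking the 19 members past 2-fold together, 12 stayed past 2-fold in the same direction under each of 11 other ways of processing that gave them a value, 6 on each side, and none changed direction. Their sizes did not stay. The smallest log2 difference under any of these was 2.92 for Fbxo4, 2.75 for Fbxw11, 2.04 for Fbxl17, 1.65 for Fbxl2, 1.48 for Klhl17 and 1.12 for Anapc7 among the higher ones. Among the lower ones it was -3.56 for Anapc13, -1.71 for Anapc4, -1.70 for Klhl20, -1.12 for Kctd9, -1.07 for Fbxo33 and -1.01 for Fbxo18. Several of them thus came close to 2-fold. Of the 44 measured members, 38 rested on 1 measured probe, and 18 had a further probe that did not count as measured. Only 6 had more than 1 measured probe. In Anapc5, Cul2, Fbxo18 and Fbxw11 these pointed the same way, and in Fbxl22 and Fbxo8 they were split.

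**Figure D3:**
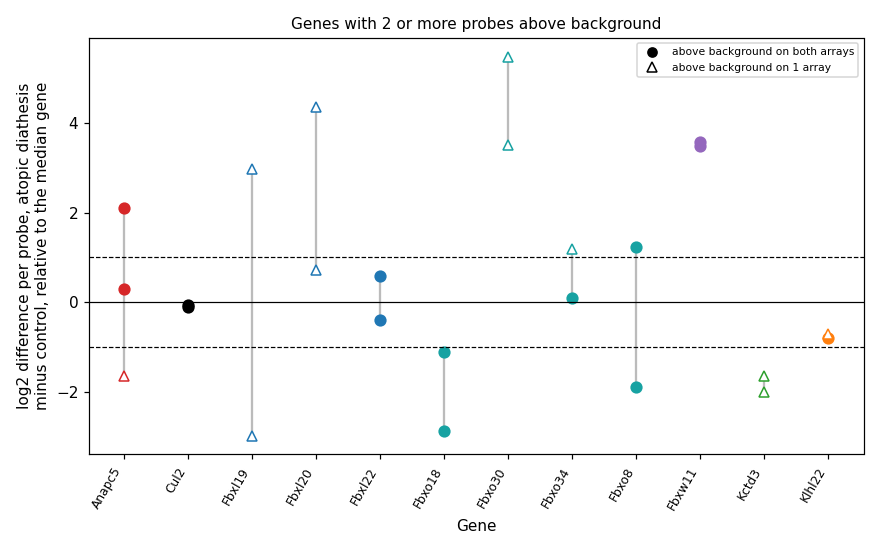
The vertical axis gives the log2 difference of each probe, atopic diathesis minus control relative to the median measured gene, for members with at least 2 probes above background on an array; circles are probes above background on both arrays, open triangles those above background on 1 array, and dashed lines mark 2-fold. The probes of Fbxw11, Cul2 and Kctd3 lie close together, and those of Fbxl19, Fbxo8 and Anapc5 lie on opposite sides.

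Detection on a single array was more often on the atopic diathesis side: 20 of the 27 such members, or 74.1%, against 66.1% of all 4269 such genes. For these genes a bound was formed at the brightest probe: its signal was divided by its own signal on the other array or by the lowest detected signal there (19.9 in atopic diathesis, 19.8 in control), whichever was larger. It reached 2-fold for 12 of the 20 members in atopic diathesis, against 59.2% of all such genes, and for 5 of the 7 in control microglia, against 51.1%. These bounds depend on the background treatment: 6 in atopic diathesis and 3 in control microglia reached 2-fold with normexp, and 6 in atopic diathesis and 2 in control microglia with uncorrected signals. All 27 were smaller under both, at a median of 0.517 and 0.483 times the values given here.

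Fbxo30, an F-box protein of muscle wasting, had the highest bound upward. Its probes read 566 and 130 in atopic diathesis and 13 and 11.8 in control microglia, and the bound was at least 29.3-fold higher. The dimmer of these probes covers 2 or more blocks of the genome, from 11011329 to 11015032 on chromosome 10. Fbxo9, a receptor in mTOR signalling, followed at 401 in atopic diathesis and 13.3 in control microglia, at least 20.7-fold higher. Each of these 2 genes was near background in control microglia.

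High bounds were also found for Fbxo21 (174 in atopic diathesis, 8.79 in control, at least 9.02-fold higher), Fbxw22 (156 in atopic diathesis, 14.4 in control, at least 8.09-fold) and Kctd13, which targets the GTPase RhoA (109 in atopic diathesis, 3.94 in control, at least 5.63-fold). Rhoa itself read 0.09. The other Fbxw22 probe read 4.87 in atopic diathesis and 5.02 in control microglia, above background on neither array.

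Further genes detected in atopic diathesis alone with bounds past 2-fold included Fbxl20, known from synapses (4.70), Anapc11, Klhl26 (2.72), Fbxo36 (2.63), Fbxo25 (2.54) and Fbxo5, the Emi1 inhibitor of the APC (2.21). The 2 Fbxo25 probes lie 4 bases apart and read 49.1 and 8.03 in atopic diathesis and 6.29 and 3.99 in control microglia. Another 8 (Fbxw14, Klhl28, Fbxl15, Klhl12, Kctd21, Klhl34, Klhl18 and Klhl31) had bounds from 1.24 to 1.65.

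In control microglia only, Fbxo45, an F-box protein of the nervous system that works with the ligase Mycbp2 rather than Cul1, read 1288, against 15.8 in atopic diathesis microglia. The bound of at least 63.3-fold lower was the largest of any member, and it was 14-fold with uncorrected signals. Fbxo22 read 20.6 in atopic diathesis and 148 in control microglia, at least 7.04-fold lower. Fbxo46 read 9.99 in atopic diathesis and 135 in control microglia (at least 6.63-fold lower), and Fbxw8, the receptor of Cul7, was at least 4.72-fold lower, with 96.1 in control microglia. The other Fbxw8 probe read 4.0 in atopic diathesis and 3.99 in control microglia, above background on neither array.

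Both Kctd3 probes were above background in control microglia alone. The brighter read 13.1 in atopic diathesis and 54.0 in control microglia, at least 2.66-fold lower. Fbxl6 (bound 1.77) and Fbxl5, an iron sensor that controls iron regulatory proteins (1.45), stayed under 2-fold. The other Fbxl5 probe read 18.5 in atopic diathesis and 5.2 in control microglia, above background on neither array. Fbxl19, known as a receptor for the interleukin-33 receptor, has probes 478 bases apart that were detected on different arrays. The probe with the lower coordinates read 35.4 in atopic diathesis, above background, and 4.62 in control microglia. The other read 4.17 in atopic diathesis and 33.7 in control microglia, above background there.

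**Figure D4:**
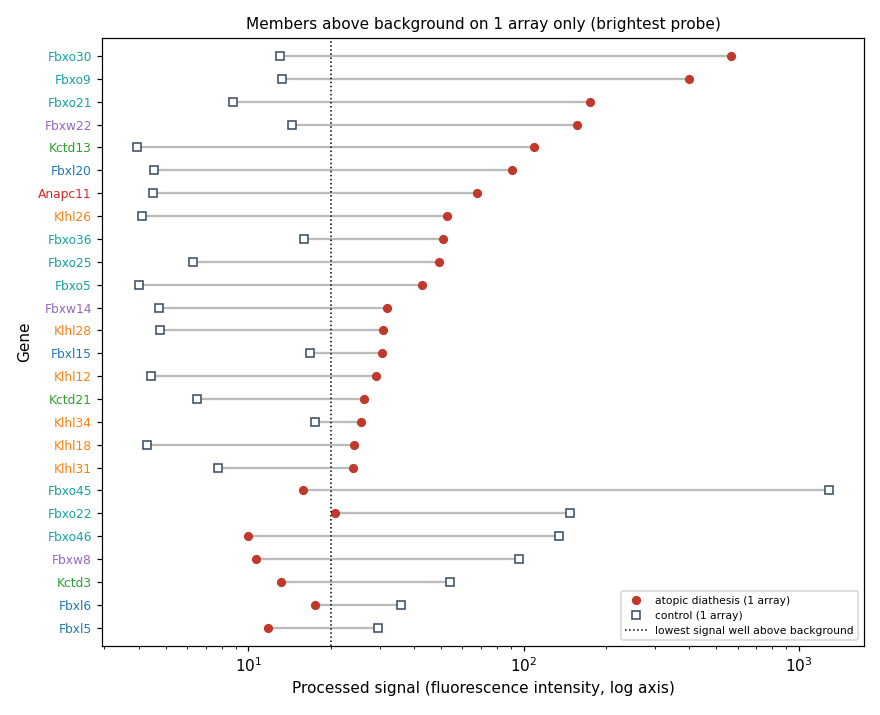
Processed signal on a log axis, at the brightest probe, for members above background on 1 array only, with filled circles for atopic diathesis and open squares for control, in order of their bounds within each direction. The genes from Fbxo30 to Klhl31 were detected in atopic diathesis microglia only and the 7 from Fbxo45 to Fbxl5 in control microglia only; the dotted line is the lowest signal well above background.

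The 77 genes above background on neither array had signals up to 22.4 in atopic diathesis and 20.4 in control microglia. They include Fbxw7, the receptor for cyclin E, Myc and Notch, the muscle gene Fbxo32, Fbxo7 of the parkin pathway, Fbxl21 and Kctd5. Of the 13 Fbxw genes that lie side by side on chromosome 9, between 109042040 and 109672648 on mm9, 11 were in this class, and Fbxw14 and Fbxw22 were the others. Probes of Fbxw20 and Fbxw25 share a stretch of 20 or more bases. At this signal, expression of these genes was not detectable, which does not show that it is absent.

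Partners, activators and substrates of these ligases, 81 genes from lists chosen with earlier results of these data known, held 43 measured genes, with a median of 0.20. Of these, 13 were higher and 6 lower, where 17.3% of all measured genes were higher and 15.6% lower. On the 75th percentile scale 10 of them were lower. Skp1, the adaptor of F-box proteins, was above background on neither array, at 4.74 in atopic diathesis and 4.60 in control microglia. Of 23 partners of cullins, 5 of 13 measured genes were higher and 2 lower. The RING proteins of cullin ligases were both higher: Rbx1 read 410 in atopic diathesis and 132 in control microglia (1.67), and Rnf7, the partner of Cul5, read 186 in atopic diathesis and 23.6 in control microglia (3.01). The Rnf7 control signal lay near the lowest detected signal of that array, 19.8.

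Receptors outside the naming rule differed one by one. Ddb2, the DNA damage receptor of Cul4, read 1205 in atopic diathesis and 140 in control microglia (3.14), whereas its adaptor Ddb1 read 115 in atopic diathesis and 331 in control microglia (-1.49). Spop, a BTB receptor of Cul3, read 342 in atopic diathesis and 51.6 in control microglia (2.76), and Vhl, the receptor of Cul2, read 932 in atopic diathesis and 432 in control microglia (1.14). Elob, an elongin gene of Cul2 ligases, was lower (28.1 in atopic diathesis, 88.1 in control, -1.62), and the other elongin gene Eloc read 0.58. The Elob signal in atopic diathesis lay near the lowest detected there, 19.9.

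Cdc34, the conjugating enzyme of F-box ligases, was not detected in control microglia: it read 1235 in atopic diathesis and 20.5 in control microglia, at least 61.6-fold higher. Its relative Ube2r2 was not detected in atopic diathesis microglia, at 11.5 there and 149 in control microglia, at least 7.31-fold lower, and Crbn, a receptor of Cul4, was at least 2.44-fold lower. Skp2, the F-box receptor for Cdkn1b, read 90.6 in atopic diathesis and 3.99 in control microglia, at least 4.69-fold higher, while Cdkn1b read 0.82. Bounds of list genes were formed as for the members and depend on the background treatment too. All 27 member bounds were smaller with normexp and with uncorrected signals.

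Genes of neddylation, the modification that activates cullins, and of the COP9 signalosome, which removes it, were higher in 5 of 10 measured cases and lower in none, with a median of 1.11, where 17.3% of all measured genes were higher and 15.6% lower. Nedd8 itself read 389 in atopic diathesis and 101 in control microglia (1.98). Dcun1d1, which promotes the attachment of Nedd8, read 661 in atopic diathesis and 76.8 in control microglia (3.14). The signalosome genes Cops2 (2.10), Cops3 (1.53) and Cops5, its catalytic subunit (1.37), were higher, and Gps1 (-0.94) and Ube2m (-0.47) stayed within 2-fold. On the 75th percentile scale, where the median gene lies at -0.50, Gps1 fell past 2-fold downward and Cops5 came within 2-fold. The list median of 1.11 fell by the same amount.

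Of the same list, 7 genes were detected in atopic diathesis alone and 1 (Ube2f, bound 1.38) in control microglia alone, where 66.1% of all genes detected on a single array were on the atopic diathesis side. Those in atopic diathesis included Dcun1d2 (at least 16.3-fold higher), Dcun1d5 (8.19), Dcun1d4 (5.77), Senp8, which processes Nedd8 (4.51), and the exchange factor Cand1 (2.53). Several of these genes had control signals at or near background, at 24.6 for Cops2, 28.0 for Cops3 and 24.9 for Cops5. Their folds share that limit.

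Among APC partners, Cdc16, another subunit with tetratricopeptide repeats, was higher at 157 in atopic diathesis and 54.7 in control microglia (1.56), and Ube2s, the enzyme that extends chains for the APC, was lower at 148 in atopic diathesis and 547 in control microglia (-1.85). Cdc27 read -0.23 and Ube2c -0.22. The coactivators Cdc20 and Fzr1 were above background on neither array. Of 15 measured substrates 33.3% lay past 2-fold, near the 32.9% of all measured genes. Among the substrates 2 were higher, Bcl6 among them, and 3 lower: Notch1 (50.1 in atopic diathesis, 324 in control, -2.66), the clock repressor Cry2 (23.5 in atopic diathesis, 96.6 in control, -2.01) and Cdkn1a (90.9 in atopic diathesis, 198 in control, -1.09). The Cry2 signal in atopic diathesis lay near the lowest detected there, 19.9. Hif1a, the substrate of Vhl, read -0.24, and Nfe2l2, the substrate of the Cul3 receptor Keap1, was detected in atopic diathesis alone, at least 3.55-fold higher. Keap1 was also above background there only, with a bound of 1.24.

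**Figure D5:**
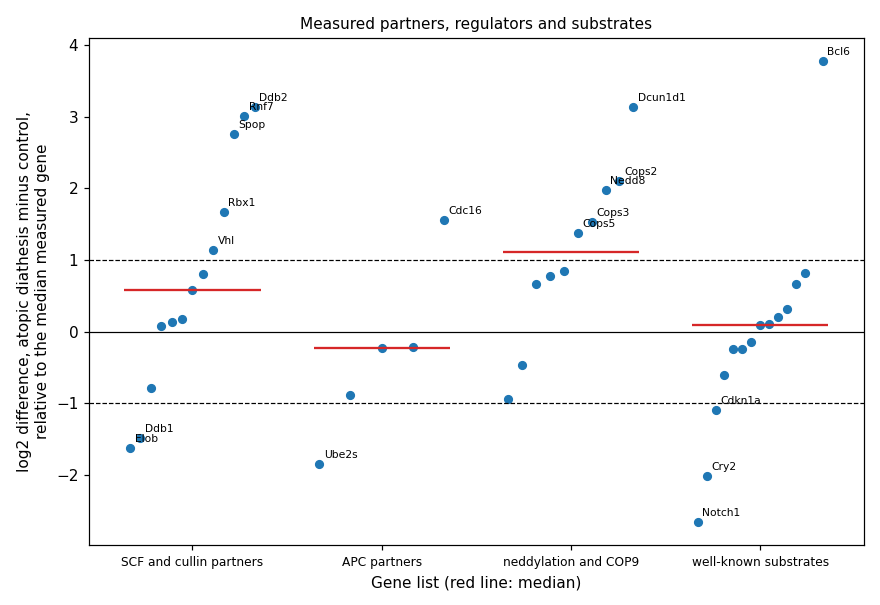
Each point is a measured gene of 4 lists, with its log2 difference, atopic diathesis minus control relative to the median measured gene, on the vertical axis; red lines are list medians, dashed lines mark 2-fold, and genes past 2-fold are named. On the main scale the list of neddylation and COP9 genes has its median at 1.11 and no gene past 2-fold downward. The other lists have genes past 2-fold on both sides.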

How the data were processed

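Total RNA of sorted microglia was labelled with Cy3 after low-input amplification, per the labels' protocols. The deposited scanner files give each spot's fluorescence intensity, background-subtracted by Agilent Feature Extraction (10.7.1.1 per the file headers, 9.5.1.1 per the submitters' processing notes), with probes on mm9. The deposited series table holds intensity with equal distributions in both columns (median 6.64), ranked as the scanner values (Spearman correlation 1.00 across probes). No source used here states the step that made it.

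Control spots (3671) and outlier-flagged spots (122 in atopic diathesis, 136 in control) were left out, with 12 probes that lost every spot. Spots of a probe and measured probes of a gene were averaged as log2. Accessions of 27231 of 55669 probes, and of 189 of 209 member probes, matched RefSeq (GRCm38.p6), used for names only. The scale was the median measured gene, since the 75th percentile of all probes (28.6 in atopic diathesis and 20.7 in control) falls among dim ones; scaled on probes well above background on both arrays, that gene reads 0.08. Spot error came from probes printed 10 times.

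Members, lists and alternatives were chosen with earlier results of these data known. Named were all cullin and Anapc genes, the 12 highest and lowest, family extremes, genes with split probes, the 6 highest bounds per direction, and list genes past 2-fold. Python 3.11.15, pandas 2.3.3 and limma 3.58.1 (normexp, offset 50) were used, checked on simulated data. Alternatives were 4 other scalings, the series table among them, 2 background treatments, 2 filters, the brightest probe, kept outlier spots and, added after the data were seen, no probes with shared stretches. Some genes under these rules are not reported here and are left off the plots of signals, probes and lists, while counts and medians include them.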

Additional observations from a re-analysis of the deposited data

How the results depend on the processing

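No paired analysis was possible because each group has 1 array, and none could be left out. Outlier spots kept and scaling by detected probes left all counts within 1.5 times and all family medians within the spot error. With every probe's 75th percentile as the scale, the members' median was -0.46, and family medians were -0.56 (cullins), 0.01 (Anapc), 0.94 (Fbxl), -0.77 (Fbxo), 0.76 (Fbxw), -0.36 (Klhl) and -0.61 (Kctd), against -0.06, 0.51, 1.44, -0.27, 1.26, 0.14 and -0.11 on the main scale, and 10 list genes were lower (6 on the main scale). Quantile normalization gave -0.24 for all members, -0.36 for cullins, 0.98 for Fbxl, -0.57 for Fbxo and -0.37 for Klhl, and the series table -0.24, -0.35, 0.97, -0.57 and -0.37. With normexp Fbxl read 0.58 and Fbxw 1.03, with uncorrected signals 0.51 and 0.95, and then 7 members were higher (11 on the main scale). Over all measured genes 900 were higher with uncorrected signals (1596 on the main scale). With detection on 1 array taken as enough, 28 members were higher and 16 lower, of 72, with Anapc at 0.06, Fbxl at 0.71 and Fbxw at 1.84. Over all genes that filter gave 3933 higher and 2955 lower, of 13579. With no filter, 42 members were higher and 15 lower, of 149, with Anapc at 0.17, Fbxl at 0.51, Fbxo at -0.01, Fbxw at 0.43 and Kctd at 0.27. Over all genes 5604 were then higher and 3065 lower, of 35015. Higher ones made up 73.7% of the calls for members and 64.6% for all genes. Both filters add genes near background. The brightest probe put Anapc at 0.75 and Fbxo at -0.50, and leaving out shared stretches put Anapc at 0.76, since Anapc13 and Anapc5 drop out. Bounds of at least 2-fold numbered 6 (atopic diathesis) and 3 (control) with normexp and 6 and 2 with uncorrected signals, against 12 and 5, and all 27 bounds were smaller under both, at medians of 0.517 and 0.483 times the main value. The number of arrays limits the precision, and 15 of 44 measured members have their dimmer signal under 50, where the treatment of background sets the fold.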
